A study of Mus musculus with 14 samples.

Results

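The widest stretches of H3K27 acetylation that wild-type and mutant embryoid bodies had in common were examined. A domain was a peak of the wild-type (WT) day 4 H3K27ac list that spanned 5000 bp or more and overlapped at least 1 bp of a peak in the list of cells with CTCF-K20R, in which lysine 20 of CTCF is replaced by arginine. This rule was met by 1471 of the 38982 WT peaks (3.77%), and 63.1% of all WT peaks overlapped a K20R peak at any width. The domains covered 11.4 Mb, which was 20.4% of the bases in WT peaks and 0.418% of the genome. They were chosen by their WT width and their overlap in K20R, so neither is a finding, and the values below that rest on either are descriptions with no test.

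The cells were mouse embryonic stem cells (mESCs) of the E14Tg2A line, grown on inactivated feeder fibroblasts, in which K20R was introduced by CRISPR/Cas9, and the WT cells carried no such change. Day 4 samples were embryoid bodies (EBs), aggregates of differentiating stem cells formed in hanging drops without leukemia inhibitory factor. CTCF ChIP-seq comprised 2 libraries per genotype at day 0 (mESCs) and 2 at day 4, whereas H3K27ac had 1 library per genotype, at day 4, so H3K27ac widths have no replicate check. The CTCF replicates were described as biological, but not as separate cultures or clones, and the number of clones per genotype was not stated, so genotype and clone cannot be told apart and p-values measure the spread between these libraries only.

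H3K27ac is deposited by acetyltransferases such as CBP and p300 on nucleosomes of active promoters and enhancers. Most acetylated stretches are short, while long ones often lie over highly transcribed genes and over clusters of enhancers near genes that define a cell's identity. CTCF binds a long, directional DNA motif, and cohesin loops tend to end at CTCF sites whose motifs point towards each other.

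CTCF sites in the domains had recognisable motifs, and the sequences below are those of sites on which the results turn. Motifs were scored with a matrix of 20 bp built from strong WT peaks of day 0, with the consensus NNGCCACCAGGGGGCGCNNN. A site was kept if all 4 day 4 libraries called it, lost if both WT libraries and neither K20R library did, and gained in the reverse case. Each line gives 60 bases of mm10 with the matched motif in capitals, read in the motif's direction, and names a site by its gene or by the gene of the domain it lay in.
Wrap53, kept, chr11:69579415-69579474, minus strand: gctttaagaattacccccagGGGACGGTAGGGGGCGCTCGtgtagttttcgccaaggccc
Col18a1, kept, chr10:77130712-77130771, plus strand: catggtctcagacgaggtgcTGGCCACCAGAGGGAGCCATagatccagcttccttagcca
Mcl1, kept, chr3:95675966-95676025, minus strand: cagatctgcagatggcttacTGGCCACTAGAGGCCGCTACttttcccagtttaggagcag
Trim71, kept, chr9:114524069-114524128, minus strand: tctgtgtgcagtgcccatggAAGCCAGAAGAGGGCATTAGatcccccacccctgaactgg
Trim71, lost, chr9:114529023-114529082, minus strand: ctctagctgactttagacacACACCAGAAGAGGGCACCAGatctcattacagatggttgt
Trim71, lost, chr9:114518968-114519027, plus strand: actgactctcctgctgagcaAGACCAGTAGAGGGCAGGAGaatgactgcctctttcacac
Rbpms2, lost, chr9:65661221-65661280, minus strand: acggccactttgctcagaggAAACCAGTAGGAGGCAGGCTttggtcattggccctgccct
Rbpms2, lost, chr9:65652118-65652177, plus strand: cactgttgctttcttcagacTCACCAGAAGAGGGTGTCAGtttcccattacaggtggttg
Col18a1, lost, chr10:77128000-77128059, minus strand: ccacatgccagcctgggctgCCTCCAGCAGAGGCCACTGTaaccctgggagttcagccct
Platr17, lost, chr17:33910872-33910931, minus strand: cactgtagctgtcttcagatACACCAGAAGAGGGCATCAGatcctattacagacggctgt
Glo1, gained, chr17:30610571-30610630, minus strand: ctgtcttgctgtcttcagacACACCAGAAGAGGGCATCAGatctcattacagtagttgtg
The kept Trim71 match, the lost Trim71 match at the higher coordinate, the lost Platr17 match and the gained Glo1 match shared the letters AGAAGAGGGCA. These letters also stood in 12.5% of 18236 sites sampled outside H3K27ac peaks. Within 100 bp of the summit, on either strand, these letters stood in 36 of 188 lost sites inside domains (19.1%, 95% Wilson interval 14.2 to 25.4) and in 47 of 571 kept sites (8.23%, 6.25 to 10.8). In narrower WT H3K27ac peaks they stood in 9.54% of 566 lost and 4.36% of 2088 kept sites, so the order was not particular to wide domains. Outside H3K27ac peaks they stood in 15.1% of 2781 lost and 10.1% of 10397 kept sites that were sampled. The letters were taken from the printed sites, and the counts inside domains include the printed lost and kept sites that share them. Such intervals reflect the counting error alone, as if sites were independent.

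Start sites were common in the domains, and the rule did not use them directly. An annotated start site of any gene lay in 1028 domains (69.9%) and that of a protein-coding gene in 946 (64.3%), against 33.3% and 30.4% of the narrower shared WT peaks. The rule chose by width, and a wider stretch is more likely to hold a start. Median widths were 6606 bp in domains and 1204 bp in the narrower peaks, and the shares were not adjusted for this. In all, 1247 of 21938 protein-coding genes (5.68%) started in a domain, and 251 domains held 2 or more of them. Around a lone protein-coding gene, acetylation reached further into the gene than away from it in 530 of 695 domains (76.3%), with medians of 4639 bp downstream and 2005 bp upstream of the start. The 443 domains without any start site lay a median of 13724 bp from the nearest protein-coding start. The median GC content of domains was 48.6%, and CpG dinucleotides stood at 0.343 of their expected frequency, compared with 46.1% and 0.216 in windows of the same widths 50 kb to the left. The narrower shared WT peaks had a median GC content of 49.7%, above that of the domains, and a CpG value of 0.291, so a high GC content was not particular to wide domains.

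Promoters of the domains were richer in CG than promoters as a whole. Promoters in narrower H3K27ac peaks were not compared, so this is not shown to be particular to wide domains. The RefSeq promoter table (GRCm38.p6) listed 1496 promoters in domains, with a median of 18.0 CG in the 250 bases before the start, against 6 over all 32851 promoters. The 2 widest domains covered the promoters of Trim71, an RNA-binding ubiquitin ligase of early embryonic cells, and Rbpms2, an RNA-binding protein, printed here with CG in capitals because they differed in this respect.
Trim71, chr9:114564370-114564619, minus strand: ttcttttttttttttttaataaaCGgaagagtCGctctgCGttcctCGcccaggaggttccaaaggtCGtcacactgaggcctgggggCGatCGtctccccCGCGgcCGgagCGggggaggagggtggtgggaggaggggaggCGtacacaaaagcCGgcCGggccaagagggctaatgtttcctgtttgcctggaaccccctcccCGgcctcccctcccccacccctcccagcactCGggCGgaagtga
Rbpms2, chr9:65630332-65630581, plus strand: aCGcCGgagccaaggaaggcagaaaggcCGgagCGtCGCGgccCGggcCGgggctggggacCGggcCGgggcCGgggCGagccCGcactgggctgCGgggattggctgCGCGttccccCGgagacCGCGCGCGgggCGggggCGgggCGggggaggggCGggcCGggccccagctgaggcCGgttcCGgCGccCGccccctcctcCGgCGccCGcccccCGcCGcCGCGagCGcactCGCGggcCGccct
The Trim71 promoter held 17 CG, a number reached by 23.5% of all promoters, and the Rbpms2 promoter held 41, a number reached by 1.09%.

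Widths ran from 5001 to 49286 bp, with a median of 6606 bp against 885 bp over all WT peaks. Of the domains, 231 reached 10000 bp and 21 reached 20000 bp. Peaks just inside the threshold lay near Kmt2a (5001 bp) and at Cflar and U2surp (both 5003 bp), and shared peaks just outside it lay near Stox2 (4998 bp) and at Klhl21 (4997 bp) and Cenpt (4996 bp). Only 3 WT peaks of 5000 bp or more had no K20R peak beneath them, at Nynrin, at Prob1 and in a region 353261 bp from Adamts9. The median fold enrichment over background was 6.63 in the WT peaks of the domains and 6.32 in the widest K20R peak of each, and the medians of the full lists were 3.24 and 3.25.

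The widest overlapping K20R peak was 0.876 times as wide as the WT peak in the median domain (95% binomial interval of the median 0.853 to 0.900), and the middle 50% of domains lay between 0.582 and 1.12. It was at most 2/3 of the WT width in 472 domains (32.1%, against 18.2% of all 24579 shared WT peaks) and at least 1.5 times as wide in 136 (9.25%, against 37.0%). In 911 domains the K20R list had 1 peak, in 449 it had 2, and in 111 it had 3 or more. K20R peaks covered a median of 84.9% of a domain, covered 281 domains in full, and reached 5000 bp in 941. The direction of the median depended on which genotype chose the domains. The 1887 K20R peaks of 5000 bp or more that overlapped a WT peak had WT peaks 0.708 times as wide, and the 1578 pairs whose geometric mean width reached 5000 bp had a K20R to WT ratio of 1.14. No general narrowing in K20R can therefore be read from the ratio of 0.876.

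**Figure D1:**
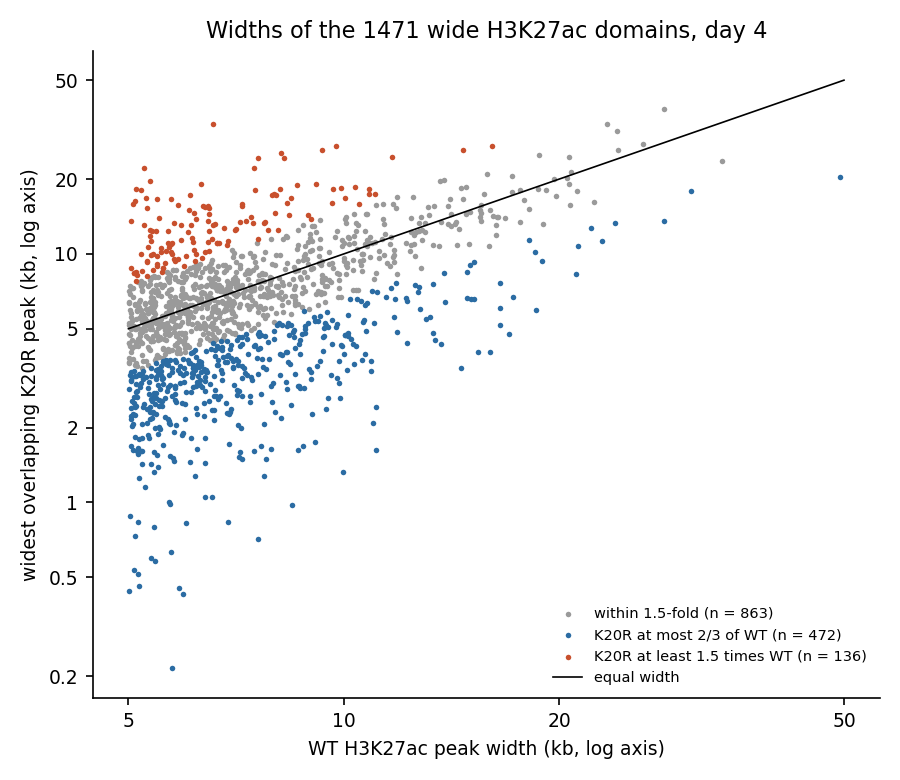
Width of each domain in the WT list (horizontal axis, kb, log scale) against the widest K20R peak that overlapped it (vertical axis, kb, log scale), 1 point per domain, with the line of equal width. Points at most 2/3 of the WT width (472) outnumber those at least 1.5 times as wide (136), on the side that selection by WT width favours.

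Of the 10 widest domains, 5 were narrower and 5 wider in K20R. The Trim71 domain (chr9:114515864-114565149, mm10) spanned 49286 bp in WT and was broken into 4 K20R peaks, the widest of 20354 bp, that together covered 90.8% of it. The Rbpms2 domain (chr9:65628927-65662723) spanned 33797 bp and was also split into 4 peaks, with 23699 bp in the widest. Splitting thus left most of both domains acetylated.
The domain of Zmynd8, a reader of acetylated chromatin, went from 30600 bp in WT to 17848 bp in K20R, and 2 K20R peaks covered 93.6% of it. A domain over Flad1, Cks1b, Shc1, Pygo2 and Pbxip1, whose products include an FAD synthase, a cyclin-dependent kinase subunit and a Wnt coactivator, went from 28034 to 13562 bp. That of Ppp2r5c, a regulatory subunit of protein phosphatase 2A, went from 23960 to 13369 bp. The other 5 lay in 1 wider K20R peak each. The domain of Mcl1, which restrains apoptosis, spanned 28022 bp in WT and 38419 bp in K20R, that of Myh9, a non-muscle myosin heavy chain, 24058 and 31162 bp, and that of Prrc2b 23327 and 33347 bp. Domains near Rbpms (5493 bp away) and Mkrn1 (7601 bp away), with no start site inside, differed least, at 1.06 and 1.08 times the WT width.

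**Figure D2:**
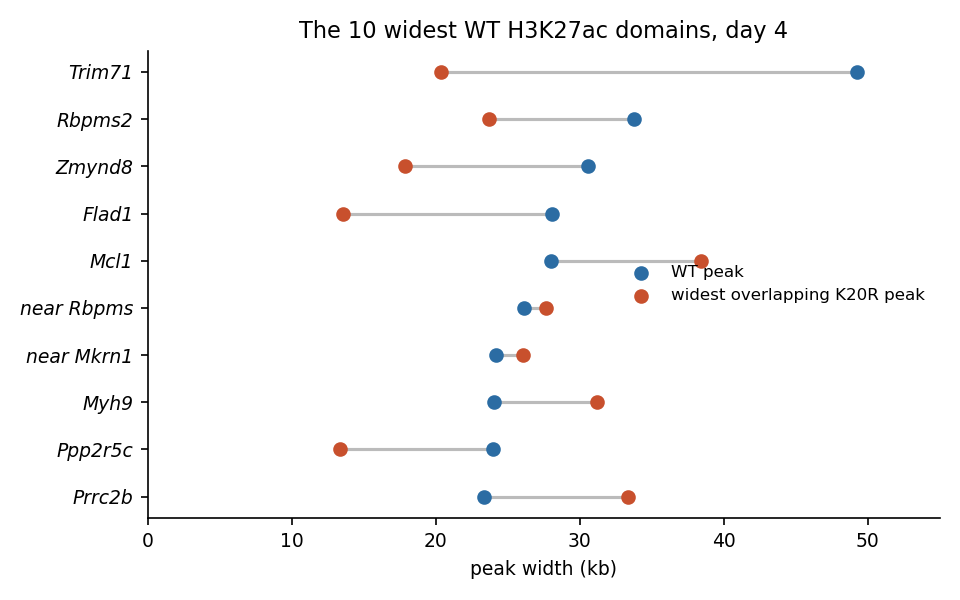
Width in kb of the 10 widest domains in WT (blue) and of the widest overlapping K20R peak (red), ordered by WT width. Trim71, Rbpms2, Zmynd8, Flad1 and Ppp2r5c were narrower in K20R and the other 5 wider, with 1 library per genotype and no error bar.

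At the extremes of the ratio, most domains lay away from start sites. The lowest ratio, 0.0374, belonged to a domain 20805 bp from Oxa1l that spanned 5744 bp in WT and 215 bp in K20R. It lay in the stretch of chromosome 14 described below. Ratios of 0.0721, 0.0771 and 0.0884 were found near Hdac5, a histone deacetylase, Epha2, an ephrin receptor, and Kmt2a, a histone H3K4 methyltransferase. Dnmt3a, a de novo DNA methyltransferase, started in 2 domains with opposite values, 5167 bp in WT against 462 bp in K20R at one start and 9039 against 12894 bp at the other. The highest ratio, 5.08, belonged to a domain next to that of Prrc2b, 6565 bp wide in WT, which the same K20R peak of 33347 bp joined to its neighbour. Near Eef1g, a translation elongation factor, 5265 bp in WT lay under 22167 bp in K20R, and near Dido1 and Rps15a and at Nutf2, a nuclear import factor, the ratios were 3.65, 3.57 and 3.48. The Nutf2 domain lay in the stretch of chromosome 8 described below. Merging of a domain with another domain was uncommon, since the 1471 domains had 1446 distinct widest K20R peaks. This count leaves out narrower WT peaks. Of the 1887 K20R peaks of 5000 bp or more that overlapped a WT peak, 621 overlapped 2 WT peaks and 211 overlapped 3 or more.

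Of the gene lists examined, ribosomal protein and histone genes were those most often inside domains, and their domains were mostly wider in K20R. Of 98 genes taken by their Rpl or Rps symbol, 40 started in a domain, and of the 72 left after protein kinases and paralogs were taken out, 38 did (52.8%, against 5.68% of protein-coding genes). The 37 domains of these 38 genes had a median ratio of 1.26, and 29 of them had a ratio above 1, against 539 of all 1471 domains (36.6%). The domain of Rpl18 spanned 19653 bp in WT and 20098 bp in K20R, that of Rpl23a 14139 and 14440 bp, and that of Rpl35 11434 and 12014 bp. Only the Rpl8 domain was at most 2/3 as wide, with 10736 bp in WT and 4915 bp in K20R. Of 67 replication-dependent histone genes, which supply histones in S phase, 32 started in 9 domains, and all 9 had a ratio above 1, with a median of 1.45. The domains of Hist1h1c (16116 bp) and Hist1h1a (9752 bp) lay side by side under the same K20R peak of 27129 bp. That of Hist1h2ag went from 10058 to 13336 bp, that of Hist1h1b from 9996 to 11064 bp, and the narrowest difference, at Hist1h4h, was 8556 against 8566 bp. Without the width threshold, the K20R peak at the start was the wider in 59 of 69 ribosomal protein genes and 53 of 54 histone genes with a peak in both lists, against 60.9% of 8603 protein-coding genes. Histone genes share peaks, so these are fewer regions than genes.

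Naive pluripotency and formative genes started in domains more often than protein-coding genes as a whole, though the domains were few. The widths of these domains moved in both directions. Of 20 naive pluripotency genes, 5 started in 5 domains with a median ratio of 0.740, and 2 of these had a ratio above 1, a share near the 36.6% of all domains. Only 10 of the 20 had a WT peak of any width at the start. Klf4, Esrrb, Tfcp2l1, Tbx3, Prdm14, Nr0b1, Dppa3 and Tcl1 had no peak there in either list. Pou5f1, the core pluripotency factor Oct4, had 8810 bp in WT and 5869 bp in K20R, Lin28a, an RNA-binding inhibitor of let-7, 12690 and 6995 bp, and Sall4 9853 and 7292 bp, whereas Sox2, the partner of Oct4, had 6826 and 9052 bp and Tdgf1, a coreceptor of Nodal, 6537 and 11482 bp. Of 13 formative genes, 5 (38.5%) started in 7 domains with a median of 0.638, and 1 of the 7 had a ratio above 1. Among them were Otx2, a factor that marks exit from naive pluripotency, with 7119 bp in WT and 2055 bp in K20R, and 2 domains of Sall2 with ratios of 0.638 and 0.216. Otx2 and Sall2 lay in the stretch of chromosome 14 described below. Without the width threshold, the K20R peak at the start was the wider in 4 of 10 naive and 4 of 11 formative genes with a peak in both lists, against the 60.9% of protein-coding genes given above. These directions rest on 1 library per genotype.

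Of 22 primitive streak and mesoderm genes, Fgf8, Tbx6 and Nodal started in a domain (13.6%, against 5.68% of protein-coding genes), with ratios of 0.321, 0.757 and 0.889. A peak of any width lay at the start of only 8 of the 22 in WT and 5 in K20R. T, Mesp1 and Mixl1 had none in either list. Of the 5 genes with a peak in both lists, 4 had the narrower in K20R and 1, Lefty1, the wider. The Fgf8 domain (chr19:45731586-45750168), over a growth factor of the streak, spanned 18583 bp in WT, and a K20R peak of 5969 bp covered 21.6% of it. No K20R peak lay at the Fgf8 start, and 2 CTCF sites inside were kept. The domain of Tbx6, a factor of presomitic mesoderm, had 14396 bp in WT and 10898 bp in K20R, and that of Nodal, a signal that induces the streak, 7741 and 6879 bp. Ypel3 also started in the Tbx6 domain and Npm3 in the Fgf8 domain, so these widths are not those of the listed genes alone. Of 16 neural genes, Hes1 alone started in a domain (6.25%, near the share of all protein-coding genes), and its domain went from 5463 to 2630 bp. The K20R peaks covered 74.0% of the Hes1 domain, but none lay at the Hes1 start. No domain held a start of the 16 cardiac, 10 endoderm or 39 Hox genes. Neither list had a peak at any cardiac or Hox start, whereas 9216 of 21938 protein-coding genes had one in WT and 9708 in K20R. Markers of feeder fibroblasts, of blood and endothelium and of extraembryonic endoderm had 0 starts in domains. Of 5 stem cell markers, Pou5f1 and Sox2 started in a domain. With 5.68% of all protein-coding genes in domains, short lists can hold 0 starts without differing from other genes.

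Of 23 genes of the loop and acetylation machinery, 8 started in domains (34.8%, against 5.68% of protein-coding genes), with a median ratio of 0.913. The Ctcf domain spanned 6436 bp in WT and 6088 bp in K20R, and that of Ep300, which encodes the acetyltransferase p300, 6763 and 7124 bp. Kat8, another acetyltransferase, and Brd2, a reader of acetylated histones, had the 2 high ratios, 1.85 and 2.23. The Brd2 domain spanned 8154 bp in WT and 18192 bp in K20R.

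**Figure D3:**
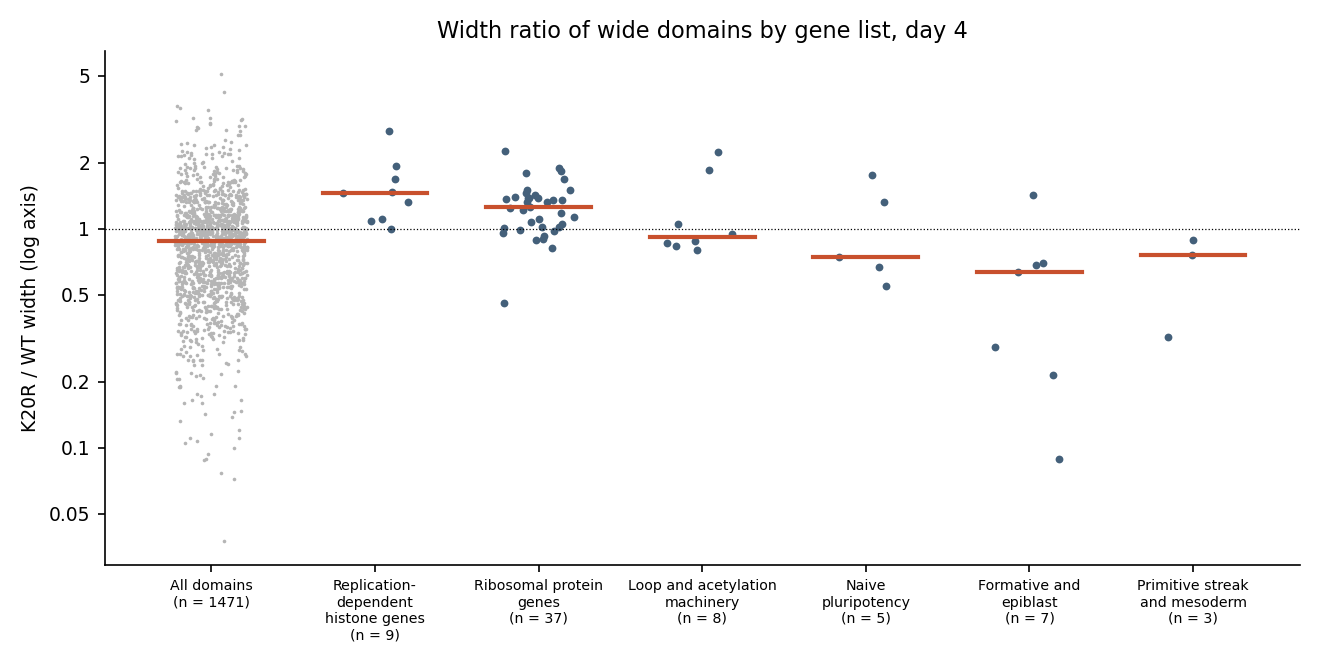
Ratio of the widest K20R peak to the WT peak (log axis) for all 1471 domains and for domains that held a start of a listed gene, 1 point per domain with the median as a red bar. Medians were 1.45 for histone and 1.26 for ribosomal protein genes, above the 0.876 of all domains, and 0.638 for formative genes.

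The domains also held 64 microRNA hairpins, in 42 domains with a median ratio of 0.959. MicroRNAs repress messages that pair with their seed, bases 2 to 8 of the mature strand. The 4 domains with the most hairpins, singled out after their values were seen, were the 290 cluster with 8, the 106a cluster on X with 6, the 302 cluster with 5, and the 106b cluster with 3. The 290 and 302 clusters are known as the main microRNA genes of pluripotent mouse cells, and the 106a and 106b clusters belong to the family of miR-17. Mature strands from RefSeq (GRCm38.p6) are printed with the seed in capitals, because the same seeds occurred in domains that moved differently.
miR-294-3p: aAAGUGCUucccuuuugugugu
miR-295-3p: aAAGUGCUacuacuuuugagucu
miR-302b-3p: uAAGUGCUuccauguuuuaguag
miR-302d-3p: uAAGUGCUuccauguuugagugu
miR-106a-5p: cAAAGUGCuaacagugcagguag
miR-20b-5p: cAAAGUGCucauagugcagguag
miR-93-5p: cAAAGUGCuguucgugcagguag
miR-106b-5p: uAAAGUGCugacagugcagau
miR-367-3p: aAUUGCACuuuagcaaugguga
miR-363-3p: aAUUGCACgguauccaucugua
miR-92a-3p: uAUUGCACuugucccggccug
miR-25-3p: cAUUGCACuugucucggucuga
The seed AAGUGCU was found in the 290 cluster (miR-294-3p and miR-295-3p) and the 302 cluster (miR-302b-3p and miR-302d-3p). AAAGUGC was found in the 106a cluster (miR-106a-5p and miR-20b-5p) and the 106b cluster (miR-93-5p and miR-106b-5p), and AUUGCAC in miR-367-3p, miR-363-3p, miR-92a-3p and miR-25-3p, that is in the 302, 106a and 106b clusters. The domain of the 302 cluster (chr3:127540586-127549360) spanned 8775 bp in WT and 1686 bp in K20R. That of the 290 cluster (chr7:3216240-3222236) spanned 5997 and 6910 bp. That of the 106a cluster (chrX:52741412-52755246) went from 13835 to 6401 bp, and that of the 106b cluster (chr5:138160397-138173363) measured 12967 and 13362 bp.

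By chromosome, the median ratio ran from 0.606 on chromosome 14 and 0.709 on chromosome 18 to 1.00 on chromosome 13. Between 40 and 70 Mb of chromosome 14, a stretch singled out with earlier results of these data known, 22 domains had a median ratio of 0.422, 18 were at most 2/3 as wide and 0 were at least 1.5 times as wide. On chromosome 8 between 80 and 110 Mb, the other stretch singled out, 20 domains had a median of 0.947. The 1429 domains outside both had 0.878. The part of these stretches in the values of single genes was not tested.

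The CTCF lists were independent of the rule. At day 4, 1074 and 1034 summits lay inside domains in the WT libraries and 622 and 859 in the K20R libraries. These were 1.76% and 1.68% of the WT lists and 1.50% and 1.81% of the K20R lists, so that the K20R libraries lay on either side of WT. The mean share was 1.72% ± 0.0531 (SD, n = 2) in WT and 1.66% ± 0.216 (SD, n = 2) in K20R, a difference of -0.0637 percentage points (two-sided exact permutation p = 1.00, with 0.33 the smallest that 2 libraries against 2 allow). Without K20R library 1 the difference was 0.0892, and without K20R library 2 it was -0.217. At day 0 the shares were 1.69% and 1.71% in WT and 1.62% and 1.57% in K20R.

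CTCF was several times denser in domains than in the genome in every library. The day 4 densities were 94.2 and 90.7 summits per Mb in WT and 54.6 and 75.4 in K20R, or 4.20, 4.02, 3.60 and 4.33 times the genome-wide density. Narrower WT H3K27ac peaks had similar values, 87.7 and 86.5 in WT and 50.1 and 76.4 in K20R, so the density was not a property of wide domains alone. A summit lay inside 717 and 711 domains in WT (48.7% and 48.3%) and inside 483 and 620 in K20R (32.8% and 42.1%). The mean difference was -11.0 percentage points (exact permutation p = 0.33). The genotypes did not overlap, and the K20R lists were also shorter, with 41360 and 47463 peaks against 61088 and 61436.

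At the boundaries, CTCF density rose from the flank, and whether it exceeded that of the interior depended on the library and on the width taken as the edge. In the 1 kb just outside a boundary, WT libraries had 98.9 and 100.3 summits per Mb and K20R libraries 67.4 and 75.4. Between 1 and 2 kb outside, the values were 66.4 and 64.6 in WT and 45.7 and 53.2 in K20R. Within 1 kb of a boundary on either side, the density divided by that of the interior was 0.991 and 1.03 in WT and 1.17 and 0.974 in K20R, a difference of 0.0576 (exact permutation p = 1.00) that was -0.0386 without K20R library 1 and 0.154 without K20R library 2. With an edge of 500 bp on either side, the mean ratio of edge to interior was 1.19 in WT and 1.30 in K20R (exact permutation p = 1.00). The share of a list's summits at these edges was 0.909% and 0.902% in WT and 0.885% and 0.917% in K20R (difference -0.00443 percentage points, exact permutation p = 1.00). Both edges of a domain were occupied in 46 and 45 domains in WT and in 20 and 32 in K20R. Motifs at edges pointed into the domain in 55.2% of 411 sites (50.4 to 60.0), against 50.5% of 1264 sites in the 10 kb flanks and 50.3% of 513 in the interior.

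**Figure D4:**
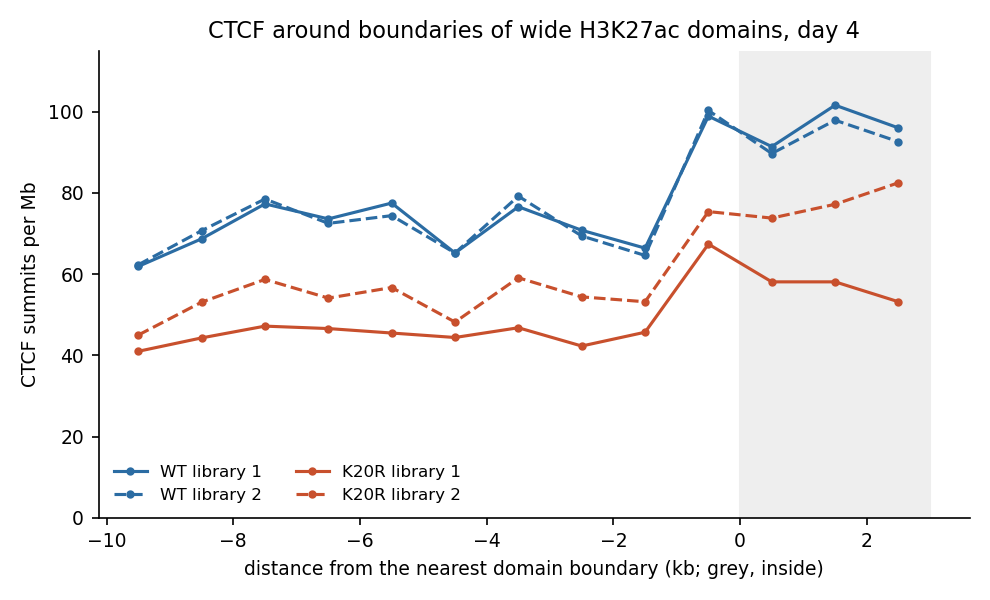
CTCF summits per Mb (vertical axis) in 1 kb bins by distance from the nearest boundary of a domain (horizontal axis, kb, inside shaded), 1 line per day 4 library. In each library the density stepped up in the last 1 kb outside the boundary, from 66.4 and 64.6 to 98.9 and 100.3 per Mb in WT and from 45.7 and 53.2 to 67.4 and 75.4 in K20R.

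Boundaries with a kept CTCF site lay further in less often in K20R than those without a site, as did those with sites called in other combinations of libraries. Of 328 boundaries with a kept site within 1 kb, 25 lay more than 1 kb further in (7.62%, 5.22 to 11.0), whereas 17.0% of 2357 boundaries with no site did (15.5 to 18.5). With a lost site, 12 of 86 did so (95% interval 8.17 to 22.8%), an interval that includes both. The 171 boundaries whose site was called in another combination of libraries had 9.36% (5.84 to 14.7), close to the value with a kept site. The outward moves of over 1 kb were 21.6%, 20.9% and 15.1% for kept, no and lost sites. Boundaries are positions of the rule's own peaks and of 1 library per genotype, so these shares are descriptions.

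Merging the 4 day 4 lists gave 1260 sites inside domains. Both WT libraries called 920 of them, and neither K20R library called 188 of these (20.4%, 18.0 to 23.2), a share close to the 18.8% of 55276 sites over the whole genome. The other way round, 6 of 586 sites were gained (1.02%, 0.470 to 2.22, against 0.541% over the genome), and 571 were kept. The share lost was 17.1% (15.9 to 18.4) in narrower WT H3K27ac peaks and 18.9% outside H3K27ac peaks. Within the domains it was 20.5% in the interior and 18.7% at edges. Without K20R library 2 it was 36.1%, and with the 4 lists cut to one length 6.89%, so its size depended on that library and on the lengths of the lists.

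Library by library, 84.4% and 80.8% of the sites inside domains were called in WT and 48.4% and 67.8% in K20R. Outside domains the values were 88.2% and 88.9% in WT and 59.8% and 68.7% in K20R. The inside value minus the outside value was -3.87 and -8.07 percentage points in WT and -11.4 and -0.901 in K20R, which gave a genotype difference of -0.184 (exact permutation p = 1.00). It was 5.09 without K20R library 1 and -7.37 without K20R library 2, and 1.27 without WT library 1 and -2.16 without WT library 2, so neither direction was shown.

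Lost sites were mainly weak and away from start sites. Lost sites inside domains had a median strength at the 17.6 percentile of their WT lists by fold enrichment, and kept sites at the 69.5 percentile. Lost sites were as weak elsewhere, with medians at the 17.6 percentile in narrower H3K27ac peaks and the 21.5 percentile over the genome. Within 1 kb of a start site 41 of 361 were lost (11.4%, 8.48 to 15.0), and further away 147 of 559 (26.3%, 22.8 to 30.1). Sites over 1 kb away were called at 87.0% and 84.0% in WT and 47.1% and 61.4% in K20R (difference -31.3 percentage points, exact permutation p = 0.33), and sites near starts at 80.6% and 76.2% in WT and 50.3% and 76.8% in K20R (-14.9, p = 0.667 by the same exact test). The K20R library 2 value near starts thus lay between those of WT. Sites with a motif match were lost in 15.1% of 696 cases (12.6 to 17.9) and those without in 37.1% of 224 (31.0 to 43.5). Narrower H3K27ac peaks had the same order, with 12.8% (11.6 to 14.2) and 29.2% (26.2 to 32.3). A match was present at 84.1% of kept and 55.9% of lost sites. Where a lost site had one, it lay mainly in soft-masked repeat sequence in 55 of 105 cases (52.4%, 42.9 to 61.7), compared with 112 of 480 kept sites (23.3%, 19.8 to 27.3). In narrower H3K27ac peaks these shares were 32.8% of lost and 15.9% of kept sites, and in a sample outside H3K27ac peaks 43.9% and 31.2%.

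**Figure D5:**
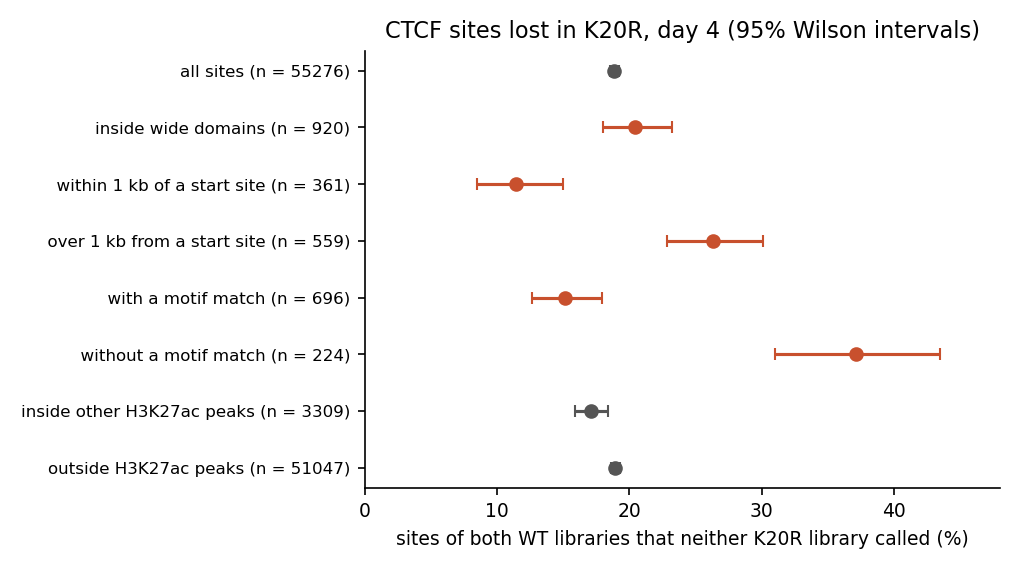
Percent of sites called in both WT libraries that neither K20R library called (horizontal axis), with 95% Wilson intervals and the number of sites, for the whole genome, for sites inside the domains split by start-site distance and by motif, and for other classes. The whole group inside domains (20.4%) lies close to all sites (18.8%), and the splits by start site (11.4% and 26.3%) and motif (15.1% and 37.1%) lie apart.

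Of the 188 sites lost inside domains at day 4, 65 were already present in the WT pair of day 0 (34.6%), and 125 were absent from the K20R pair of that day (66.5%). By the same criterion 26 were also lost at day 0 (13.8%). These shares lay near those of all 10413 lost sites, which were 36.9%, 60.4% and 11.9%. Of kept sites, 95.6% were present in the WT pair of day 0 and 94.2% in the K20R pair. At the 571 kept sites, the median rank by fold enrichment was at the 69.4 and 69.5 percentiles of the WT lists and at the 46.0 and 57.8 percentiles of the K20R lists (difference -17.6, exact permutation p = 0.33). Over all 38422 kept sites the difference was -11.9 (exact permutation p = 0.33). These are ranks within each list, and the K20R lists were shorter. A site of unchanged strength can rank lower in a list that lacks weak peaks, so the differences do not show weaker binding.

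The strongest lost site inside a domain lay in the Zfp219 domain on chromosome 14, in a UTR 73 bp from a start site, at the 82.6 and 83.6 percentiles of the WT lists, and had no motif match above the threshold. The next, printed above, lay in the Rbpms2 domain 15338 bp from a start site, at the 72.8 and 63.0 percentiles. Both were called in the WT and in neither K20R library of day 0. Of the others, those of Col18a1 and Sall2 were called in all day 0 libraries. The Col18a1 domain also held the second strongest kept site, at the 99.6 and 99.5 percentiles in WT and the 99.4 and 99.9 percentiles in K20R. Both sites lay in introns of the gene. The strongest kept site was that of Wrap53, and the third to the fifth, in the Gpd1, Dtymk and Arid2 domains, had mean percentiles of 99.6, 99.6 and 99.2 in WT and 99.1, 98.5 and 98.6 in K20R. The strongest gained sites, in the Impact and Glo1 domains, were called in every day 0 library and reached mean percentiles of 26.6 and 20.0 in K20R. The other gained sites named by rank, in the Asb1, Igf2bp1 and Chd9 domains, were weaker, at 7.12, 5.53 and 2.87.

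Among the domains with the most CTCF sites, those of Trim71 (5, 5, 3 and 3 summits in WT 1, WT 2, K20R 1 and K20R 2) and Ppp4c, a protein phosphatase subunit (6, 5, 3 and 3), had fewer in K20R. The domain of Atp5d, a subunit of the mitochondrial ATP synthase, had 5, 7, 5 and 5, and that of Mcl1 had 4, 4, 3 and 5. A domain 10838 bp from Igf2bp1 had 4, 4, 3 and 3. In the Rbpms2 domain the counts were 3, 3, 0 and 0, and all 3 sites of both WT libraries were lost. K20R peaks covered 83.5% of that domain. The Atp5d domain, whose 5 sites were kept, spanned 21134 bp in WT and was split into 3 K20R peaks, the widest of 8314 bp, that covered 71.6% of it. Over all domains, those with a lost site (173) had a median ratio of 0.859, those with kept and no lost sites (404) 0.911, and those with no CTCF site (660) 0.836.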

How the data were processed

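The deposited files are peak lists, 1 per ChIP library. The authors trimmed reads with Trim Galore, aligned them to mm10 with Bowtie2, removed duplicates and reads of low quality, subsampled the CTCF libraries to equal depth and ran MACS2 on each library, in narrow mode for CTCF and broad mode for H3K27ac. The input used for each library and any subsampling of H3K27ac were not given in the sources used here. Each deposited list holds a fold enrichment, a −log10 p-value, a −log10 q-value and an integer score (not used). It holds no read counts, so the depth behind a peak is unknown. The 4 input samples of the 14 were not analysed here.

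Summits were placed inside or outside domains, and peaks of the 4 day 4 CTCF lists overlapping by 1 bp were merged into sites, placed at the summit of the strongest peak. A boundary's edge was 1 kb on each side. Motif matches were scored within 100 bp of summits with a 20 bp matrix built on the top 1000 peaks by strength in each day 0 WT list, at the score that 5% of sequences shifted by 1 kb passed. Start sites came from GENCODE M21 basic, sequence from GRCm38, and microRNAs and promoters from RefSeq tables. Genotype differences were examined by exact permutation over libraries, two-sided. Members, gene lists and stretches of chromosomes were chosen with earlier results of these data known. Named regions were the 10 widest, the 5 lowest and 5 highest ratios, the 5 with most CTCF sites, the 5 strongest lost, gained and kept sites, those next to the threshold, and up to 4 per gene list by WT width, and 1 of these regions is not reported here. Genes named outside this rule (Rpl8, Hist1h4h, Tdgf1 and the microRNA clusters) were chosen after their values were seen, as was the ribosomal protein list without kinases and paralogs. The letters counted in CTCF sites were taken from printed sites of these data. Steps were tested on simulated data. Software was pysam 0.24.0, scipy 1.17.1, pandas 2.3.3, numpy 2.4.6 and matplotlib 3.10.9 under Python 3.11.15. Alternatives were stricter q-values, lists of one length, other widths, overlaps and edges, selection by K20R or by both widths, fewer chromosomes, omission of each library in turn and the replicate number as a block.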

Additional observations from a re-analysis of the deposited data

How the results depend on the processing

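H3K27ac widths rest on 1 library per genotype, and no read counts stand behind any peak. The CTCF tests had 2 libraries against 2 and could not pass a threshold of 0.05, so an unchanged p says nothing about stability. The median width ratio of 0.876 was 0.849 from covered bases, 0.95 from summed K20R widths, 0.914 with gaps of up to 1 kb joined, 0.908 at a −log10 q of at least 5, 0.919 with at least 50% of the domain covered and 0.843 from a width of 7500 bp, and it turned to 1.41 for domains chosen by K20R width and 1.14 for those chosen by both widths (added after seeing the data). The number of domains, 1471, was 2388 at 4000 bp and 518 at 7500 bp. The share of sites lost, 20.4%, was 17.8% at a CTCF −log10 q of at least 5, 6.89% with lists of one length and 22.3 to 36.1% without each library in turn. The genotype difference in the share of summits inside domains, -0.0637 percentage points, was 0.0180 for K20R-chosen domains and -0.217 to 0.0892 without each library. That at edges was 0.0167 with an edge of 500 bp and -0.0202 to 0.0114 without each library. That in edge to interior density was -0.0243 with lists of one length, -0.0441 for K20R-chosen domains and -0.0386 to 0.154 without each library. That in sites called inside minus outside was 0.411 at an H3K27ac −log10 q of at least 5, 0.0854 with 50% covered, 0.208 at 4000 bp, 2.64 for K20R-chosen domains, 0.834 for domains chosen by both widths and -7.37 to 5.09 without each library. The causes were not tested. Deviations of same-numbered libraries correlated at -0.0523 over kept sites inside domains and 0.0445 over all kept sites. With 2 libraries per genotype, these values cannot settle whether the numbers pair the samples. With the replicate number as a block the differences stayed at -0.0637, -0.00443, 0.0576 and -0.184, each with p = 1.00 by an exact sign-flip permutation test. Over all results, 16 alternatives turned the sign or direction, 13 moved a value or count beyond the criteria used, and 63 did neither. With tests that could not pass a threshold, these 63 include large moves of the same sign, such as -2.95 for sites called inside minus outside at a CTCF −log10 q of at least 5.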

Other observations

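Domains were unevenly spread over chromosomes. Chromosome 11 held 164 of them (11.1%, against 8.70% of all WT H3K27ac peaks), or 13.4 per 10 Mb, chromosomes 19 and 17 had 9.77 and 8.95 per 10 Mb, and X had 1.52. Besides protein-coding genes, the starts of 104 small nucleolar RNA genes, which guide chemical modification of ribosomal RNA, and of 60 lincRNA genes lay in domains. These are counts with no test.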
